A study of Homo sapiens with 16 samples.

Results

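Genes that write, copy and remove DNA methylation were followed in the human lines Be(2)-C and IMR5-75, both derived from neuroblastoma, after treatment with drugs against DNA methyltransferases and a histone methyltransferase. The 9 genes were the DNA methyltransferase genes DNMT1, DNMT3A and DNMT3B, their cofactor DNMT3L, the methylation copying factor UHRF1 with its relative UHRF2, and the dioxygenase genes TET1, TET2 and TET3. They were taken by name from the 23459 genes of the count table. Each line received the solvent DMSO, DAC at 1 µM for 72 h, EPZ-6438 at 1 µM for 96 h (EPZ below), or DAC and EPZ together at these doses and times (DAC+EPZ). DAC is not spelled out in the labels and usually stands for decitabine, a cytidine analogue that is built into DNA and traps DNA methyltransferases. EPZ-6438 inhibits EZH2, a histone methyltransferase of the Polycomb group. All 8 groups were grown in RPMI medium with 10% FCS, and each held 2 libraries, named here by line, treatment and replicate number. The labels do not say whether replicates were separate cultures. The p-values set a difference between groups against the scatter within groups of 2 libraries, estimated over all 8 groups together. That scatter may be technical alone.

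DNA methylation in mammals is a cycle of copying and erasing. DNMT3A and DNMT3B place methyl groups on cytosines that had none, and DNMT3L, which has no catalytic activity of its own, stimulates both in germ cells and early embryos. After replication, UHRF1 recognises CpG sites that carry methylation on the parental strand alone and recruits DNMT1, which methylates the new strand, so that both are most needed while DNA is being copied. UHRF2 has the same domains but does not replace UHRF1 in this role. TET1, TET2 and TET3 oxidise methylated cytosine and start its removal. Decitabine acts on protein: DNMT1 bound to the drug in DNA is degraded, which RNA levels do not show.

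The 16 libraries held between 9539557 and 14032155 counts. A level below is given as a count scaled to library size (CPM), a change as a difference in log2 with its standard error (SE), and a gene was called where the adjusted p of edgeR's quasi-likelihood test, corrected over 15967 tested genes, was under 0.05. The quantity CPM is not divided by gene length, so levels are compared between groups and never between genes. In bulk RNA, fewer cells that express a gene and less of its RNA per cell cannot be told apart. Of the 9 genes, 8 were tested, and DNMT3L was too low. Both lines expressed neuroblastoma genes such as MYCN (3209 to 5282 CPM in Be(2)-C and 1188 to 2000 CPM in IMR5-75), while TH, the first enzyme of catecholamine synthesis, reached at most 2.60 CPM in IMR5-75 and TFAP2B at most 1.26 CPM.

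UHRF1 was the gene that moved most. It fell in all 6 comparisons of a treatment with DMSO. DNMT1 fell in 4 of the 6, TET1 fell in IMR5-75 after DAC and after DAC+EPZ, and DNMT3A rose in Be(2)-C after DAC+EPZ. DNMT3B, UHRF2, TET2 and TET3 were called in none of the 6. Of the 8 tested genes, 1 in Be(2)-C was called lower after DAC, where 2.97% of all tested genes were lower and 3.73% higher, and 2 were called lower after EPZ, where the shares were 4.85% lower and 5.35% higher. After DAC+EPZ in this line 2 were lower and 1 higher, against 10.4% and 13.2% of all genes. In IMR5-75, 3 were lower after DAC (13.8% of all genes lower, 19.9% higher), 1 was lower after EPZ (0.344% lower, 1.63% higher) and 3 were lower after DAC+EPZ (20.4% lower, 25.7% higher). The median change of the 8 genes ran from -0.25 after DAC+EPZ in IMR5-75 to 0.11 after DAC in Be(2)-C, and that of all genes from 0.01 to 0.05. The 3 comparisons within a line share its DMSO libraries. Groups of 2 libraries also stood apart without a call. Among the uncalled genes this held in 4 of the 6 comparisons for UHRF2, 3 for TET3, 2 for TET2 and 0 for DNMT3B. For DNMT3A the groups stood apart in 6 of the 6, with 1 call. Where libraries are said below to lie apart, this is a description, and its share over all genes was not computed. It is therefore not read as a change.

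**Figure D1:**
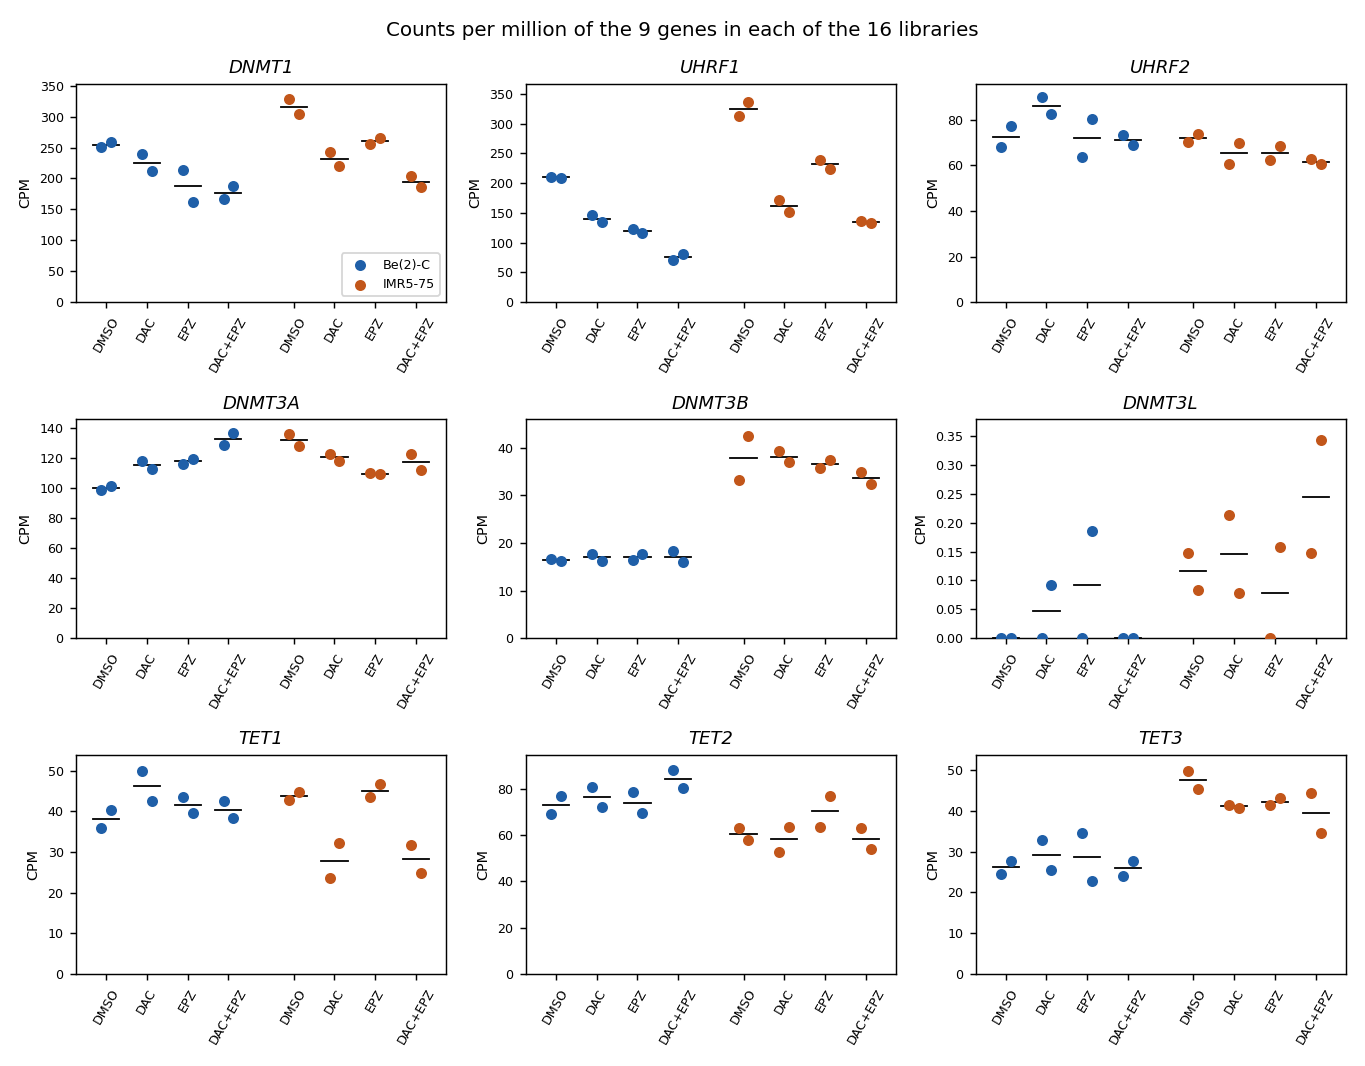
Level in CPM (vertical axes, from 0, with a scale of its own for each gene) of the 9 genes in every library, by line (colour) and treatment (horizontal axis), with 2 points and a line at the mean for each group. UHRF1 stands highest in the DMSO libraries and lowest in the DAC+EPZ libraries of each line, DNMT3B differs by line, and DNMT3L stays at or below 0.344 CPM.

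UHRF1 encodes the reader that brings the methylation machinery to replicated DNA. In Be(2)-C it stood at 211 and 209 CPM in the DMSO libraries, 146 and 135 CPM after DAC, 122 and 117 CPM after EPZ and 71.6 and 81.3 CPM after DAC+EPZ. These 4 groups did not overlap. UHRF1 fell by 0.58 (SE 0.11, adjusted p = 0.00189) after DAC on the log2 scale. The log2 change after EPZ was -0.81 (SE 0.11, adjusted p = 5.92e-05), and after DAC+EPZ the change was -1.46 (SE 0.11, adjusted p = 1.12e-08), a level of 36.3% of DMSO. Each of these 3 changes stayed called under every alternative processing that was run.

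In IMR5-75, UHRF1 stood at 312 and 337 CPM with DMSO, 172 and 152 CPM after DAC, 238 and 224 CPM after EPZ and 136 and 134 CPM after DAC+EPZ. Again no group overlapped another, but here the DAC libraries lay below the EPZ libraries, the opposite of Be(2)-C. The log2 change was -1.001 (SE 0.11, adjusted p = 3.46e-07) after DAC, which left 49.9% of the DMSO level, and -1.27 (SE 0.11, adjusted p = 7.88e-09) after DAC+EPZ. After EPZ it was -0.49 (SE 0.11, adjusted p = 0.0188), and this call was lost without IMR5-75 DMSO 2 (-0.43), EPZ 1 (-0.52) or EPZ 2 (-0.44), with adjusted p-values from 0.00113 to 0.227 over all alternatives. Ordered by mean over the 8 groups, UHRF1 ran from 324 ± 17.2 CPM (SD, n = 2) in IMR5-75 DMSO to 76.4 ± 6.85 CPM (SD, n = 2) in Be(2)-C DAC+EPZ, and the only neighbours in this order whose libraries overlapped were Be(2)-C DAC and IMR5-75 DAC+EPZ.

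DNMT1 encodes the maintenance methyltransferase. Its libraries in Be(2)-C read 251 and 258 CPM with DMSO, 239 and 212 CPM after DAC, 214 and 161 CPM after EPZ and 167 and 187 CPM after DAC+EPZ. All 6 treated libraries lay below both DMSO libraries, and the EPZ pair was the widest apart. The log2 change after DAC was -0.18 (95% interval -0.44 to 0.08, adjusted p = 0.437) and did not pass the test. After EPZ it was -0.44 (SE 0.13, adjusted p = 0.0290), and after DAC+EPZ -0.52 (SE 0.13, adjusted p = 0.00426). The EPZ call was lost without DMSO 1 (-0.48), DMSO 2 (-0.42) or EPZ 2, the lower EPZ library (-0.26), with adjusted p-values of 0.00442 to 0.291 over all alternatives, and without EPZ 1 the change was -0.66. The DAC+EPZ call was lost without DAC+EPZ 1 (-0.45, adjusted p = 0.0581, the highest of a range from 0.000263).

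In IMR5-75, DNMT1 stood at 328 and 303 CPM with DMSO, 242 and 220.0 CPM after DAC, 256 and 266 CPM after EPZ and 203 and 187 CPM after DAC+EPZ. Every treated library again lay below the DMSO libraries. DNMT1 had a log2 change of -0.45 (SE 0.12, adjusted p = 0.00836) after DAC, -0.27 (95% interval -0.53 to -0.01, adjusted p = 0.281) after EPZ and -0.69 (SE 0.13, adjusted p = 0.000116) after DAC+EPZ. The first and the last passed the test. The DAC call was lost without DMSO 1 (-0.37) or DAC 2 (-0.37), with adjusted p-values of 0.00224 to 0.0876 over the alternatives, and the DAC+EPZ call was kept in all of them. Ordered by mean, DNMT1 ran from 316 ± 17.5 CPM (SD, n = 2) in IMR5-75 DMSO to 177 ± 14.5 CPM (SD, n = 2) in Be(2)-C DAC+EPZ, and the 3 lowest groups, IMR5-75 DAC+EPZ, Be(2)-C EPZ and Be(2)-C DAC+EPZ, overlapped their neighbours.

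The starts of both genes hold a match to a searched set of short motifs, though not the same motif in the stretches printed. The other 6 members with a RefSeq promoter window lack a match, which is why these 2 are shown. The windows (RefSeq, GRCh38.p14) reach from 250 bases before to 50 bases after a start, and 8 of the 9 members had at least 1, with 19 windows in all. The motifs searched, on both strands, were the E2F-type letters TTTCCCGC, TTTCGCGC, TTTGCCGC and TTTGGCGC. E2F factors drive genes needed for DNA synthesis. A stretch that reads TTTCGCGC can hold its own reverse complement in overlapping letters. Below, capitals mark the match, written as it reads on the gene's strand, so that DNMT1 shows the reverse complement of TTTCGCGC and UHRF1 that of TTTCCCGC. DNMT1 spans chr19:10194948-10195203 on the minus strand and ends 6 bases past the start, UHRF1 spans chr19:4909251-4909500 on the plus strand and ends at the start, both on GRCh38.p14:
DNMT1: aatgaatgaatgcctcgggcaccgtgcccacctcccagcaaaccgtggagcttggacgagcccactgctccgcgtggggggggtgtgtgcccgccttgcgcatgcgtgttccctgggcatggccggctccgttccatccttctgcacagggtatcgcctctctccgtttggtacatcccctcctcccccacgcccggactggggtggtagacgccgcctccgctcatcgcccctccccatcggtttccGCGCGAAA
UHRF1: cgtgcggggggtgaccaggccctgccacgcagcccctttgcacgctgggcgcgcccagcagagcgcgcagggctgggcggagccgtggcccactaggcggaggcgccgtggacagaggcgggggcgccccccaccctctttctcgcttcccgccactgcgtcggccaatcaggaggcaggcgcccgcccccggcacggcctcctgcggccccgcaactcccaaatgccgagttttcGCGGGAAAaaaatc
The DNMT1 match covered bases -2 to 6 counted from the start, and the UHRF1 match bases -14 to -7. Another of the 3 UHRF1 windows held TTTCGCGC at bases -160 to -153. Of all 35116 windows 3.31% held a match, by gene 3.99% of 27305 genes, and of the S-phase genes described below 15 of the 27 with a window (55.6%). These matches are letters, not measured binding. The windows of these genes also differed in CpG sites, with 30 for DNMT1, 36 to 46 for UHRF1, 26 for UHRF2, 18 to 46 for DNMT3A, 3 for DNMT3B, 6 to 11 for TET1, 13 and 35 for TET2 and 33 and 45 for TET3, against a median of 14 (quartiles 4 and 28) over all windows.

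UHRF2, the relative of UHRF1, was called after no treatment. Its 16 libraries ran from 60.6 to 89.8 CPM. In Be(2)-C it stood at 67.9 and 77.3 CPM with DMSO and at 89.8 and 82.3 CPM after DAC, and in IMR5-75 at 70.3 and 73.7 CPM with DMSO and 62.6 and 60.6 CPM after DAC+EPZ. The Be(2)-C DAC pair was the highest group and the IMR5-75 DAC+EPZ pair the lowest. Log2 changes against DMSO lay between -0.23 and 0.25, and the lowest adjusted p was 0.152. The 95% intervals reached from -0.49 to 0.51, and with 2 libraries a group a change inside the interval of its comparison is not excluded.

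**Figure D2:**
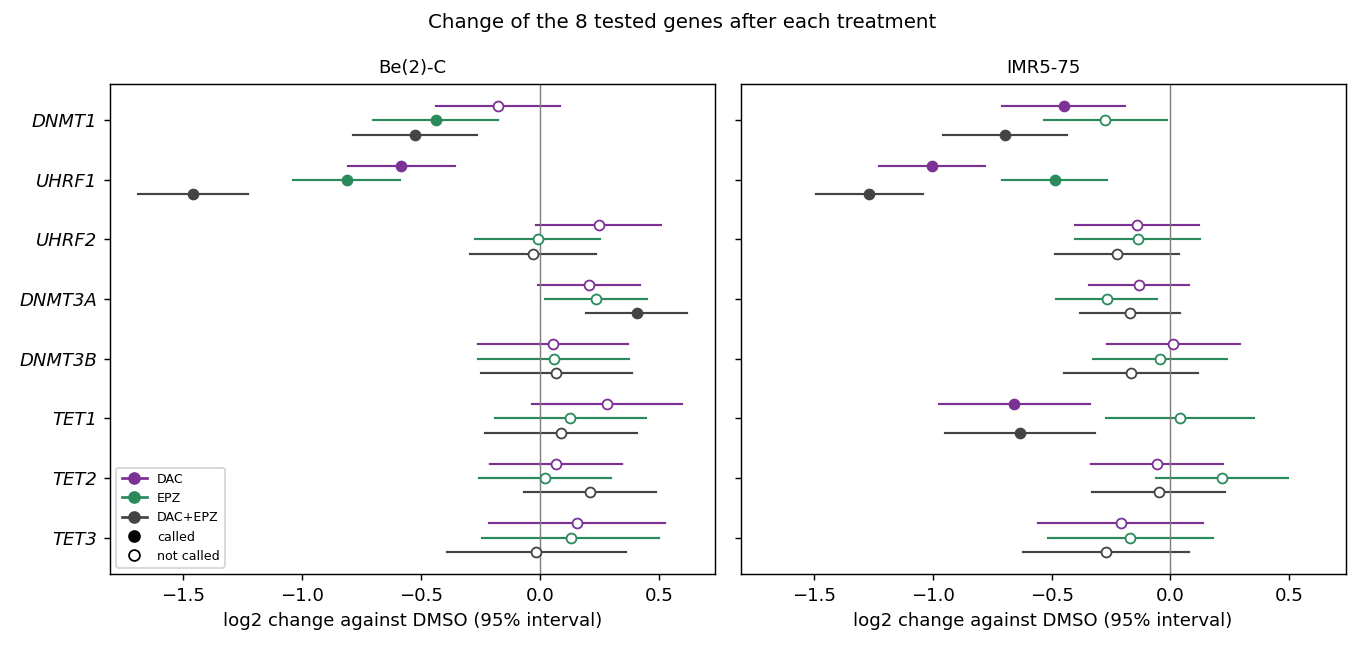
Log2 change against DMSO (horizontal axes) of the 8 tested genes (vertical axis) after DAC, EPZ and DAC+EPZ in Be(2)-C (left) and IMR5-75 (right), with 95% intervals from the fit over all 16 libraries. Filled points passed the test and open points did not. UHRF1 is filled 6 times, DNMT1 4 times, TET1 2 times, in IMR5-75, and DNMT3A 1 time, in Be(2)-C.

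DNMT3A, a de novo methyltransferase, was the gene with a rise. Its level in Be(2)-C was 98.6 and 102 CPM with DMSO, 118.1 and 113 CPM after DAC, 116 and 119.6 CPM after EPZ and 129 and 137 CPM after DAC+EPZ. All treated libraries exceeded the DMSO libraries, and the combination was highest. DNMT3A rose by 0.41 (SE 0.10, adjusted p = 0.00616) after DAC+EPZ. The changes after DAC (0.21, SE 0.10, adjusted p = 0.248) and after EPZ (0.24, SE 0.10, adjusted p = 0.162) did not pass. The DAC+EPZ call was lost without DMSO 1 (0.37) or DAC+EPZ 2 (0.35), with adjusted p-values of 0.00107 to 0.0893 over the alternatives.

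In IMR5-75, DNMT3A was at 136 and 128 CPM with DMSO, 123 and 118.1 CPM after DAC, 109.7 and 109 CPM after EPZ and 123 and 112 CPM after DAC+EPZ. Here the treated libraries lay below the DMSO libraries, which is the other side from Be(2)-C. None of the 3 log2 changes passed the test, and they ran from -0.27 (SE 0.10, adjusted p = 0.185) after EPZ to -0.13 (SE 0.10, adjusted p = 0.341) after DAC. Untreated IMR5-75 and DAC+EPZ-treated Be(2)-C, at 132 ± 5.71 and 133 ± 5.80 CPM (SD, n = 2), headed the order of DNMT3A levels and overlapped, and untreated Be(2)-C, at 100.1 ± 2.15 CPM (SD, n = 2), came last.

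DNMT3B, the other de novo methyltransferase, had separate levels in the lines and was called after no treatment. All 8 Be(2)-C libraries lay between 15.9 and 18.3 CPM and all 8 IMR5-75 libraries between 32.5 and 42.5 CPM. With DMSO it stood at 16.6 and 16.2 CPM in Be(2)-C and at 33.2 and 42.5 CPM in IMR5-75. The log2 changes against DMSO ran from -0.17 to 0.07, with 95% intervals from -0.45 to 0.39 and a lowest adjusted p of 0.333. In IMR5-75 the DAC+EPZ libraries (34.9 and 32.5 CPM) lay below those of DAC (39.3 and 37.0 CPM) and EPZ (35.9 and 37.4 CPM), with log2 differences of -0.18 (adjusted p = 0.577) and -0.12 (adjusted p = 0.508) that did not pass. DNMT3L, the cofactor, had 19 counts over all 16 libraries and at most 5 in a library. It had 3 counts over the IMR5-75 DMSO group and 0 over the Be(2)-C DMSO group, where 0 counts allow a level of up to 0.127 CPM by a floor of 3 counts, which covers counting error only. The other groups of Be(2)-C held 1 count after DAC, 2 after EPZ and 0 after DAC+EPZ, and those of IMR5-75 held 4, 2 and 7. The highest group, IMR5-75 DAC+EPZ, stood at 0.147 and 0.344 CPM, and differences in DNMT3L were not tested.

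TET1, which oxidises methylated cytosine, changed in IMR5-75. There it stood at 42.9 and 44.8 CPM with DMSO, 23.6 and 32.1 CPM after DAC, 43.4 and 46.8 CPM after EPZ and 31.6 and 24.9 CPM after DAC+EPZ. Both groups that received DAC lay below the DMSO and EPZ libraries, which overlapped each other. TET1 fell by 0.66 (SE 0.15, adjusted p = 0.00218) on the log2 scale after DAC and by 0.63 (SE 0.15, adjusted p = 0.00175) after DAC+EPZ, and its change after EPZ was 0.04 (95% interval -0.27 to 0.35, adjusted p = 0.927). The DAC call was lost without DAC 1, the lower library (-0.45, adjusted p = 0.0574, the highest of a range from 0.000128), and the DAC+EPZ call without DAC+EPZ 2 (-0.43, adjusted p = 0.0669, the highest of a range from 0.000364).

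TET1 in Be(2)-C was at 35.8 and 40.3 CPM with DMSO, 49.9 and 42.5 CPM after DAC, 43.6 and 39.6 CPM after EPZ and 42.5 and 38.4 CPM after DAC+EPZ. Only the DAC libraries stood clear of the DMSO libraries, on the high side, and no change passed the test (0.28 after DAC, 95% interval -0.03 to 0.60, adjusted p = 0.287). TET2 and TET3, the other dioxygenases, were called after no treatment. TET2 ran from 52.8 to 88.1 CPM over the 16 libraries with log2 changes from -0.06 to 0.22 (lowest adjusted p = 0.278). TET3 ran from 22.7 to 34.5 CPM in Be(2)-C and from 34.5 to 49.7 CPM in IMR5-75, with log2 changes from -0.27 to 0.16 (lowest adjusted p = 0.197), and its Be(2)-C EPZ pair, at 34.5 and 22.7 CPM, was its widest.

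The untreated lines were compared next, as the starting point of each treatment. Of the 8 tested genes, 5 were called higher in IMR5-75 than in Be(2)-C and 0 lower, while 32% of all tested genes were higher and 31.2% lower, so calls were frequent throughout. The largest difference was that of DNMT3B, at 37.9 ± 6.53 against 16.4 ± 0.301 CPM (SD, n = 2 each), a log2 difference of 1.21 (SE 0.14, adjusted p = 2.25e-07). TET3 differed by 0.86 (SE 0.17, adjusted p = 0.000181), UHRF1 by 0.63 (SE 0.11, adjusted p = 2.68e-05) and DNMT3A by 0.40 (SE 0.10, adjusted p = 0.00186). DNMT1 differed by 0.31 (SE 0.12, adjusted p = 0.0353), a call that was lost without each of the 4 DMSO libraries, with differences from 0.22 to 0.36 and adjusted p-values from 0.0357 to 0.240 over all alternatives. UHRF2 (-0.01), TET1 (0.20) and TET2 (-0.27) did not pass, with adjusted p-values of 0.943, 0.247 and 0.0870.

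Both drugs together were compared with each drug alone. In Be(2)-C, UHRF1 was lower after DAC+EPZ than after DAC (-0.88, SE 0.11, adjusted p = 7.75e-05) and than after EPZ (-0.65, SE 0.11, adjusted p = 0.000969), and it was the called gene of the 8 in both comparisons, in which 5.44% and 4.21% of all genes were called. In IMR5-75, 0 of the 8 were called between DAC+EPZ and DAC by edgeR or by DESeq2, where 1.94% of all genes were called, and UHRF1 alone had an unadjusted p under 0.05 (-0.27, adjusted p = 0.245). Between DAC+EPZ and EPZ in that line, 3 of 8 were lower, against 37.6% of all genes called in either direction: UHRF1 (-0.78, SE 0.11, adjusted p = 8.85e-06), TET1 (-0.67, SE 0.15, adjusted p = 0.00148) and DNMT1 (-0.42, SE 0.13, adjusted p = 0.0114). The TET1 call was lost without DAC+EPZ 2 (-0.48, adjusted p = 0.0562, the highest of a range from 0.000235). The DNMT1 call was lost without DAC+EPZ 2 (-0.33), EPZ 1 (-0.42) or EPZ 2 (-0.35), with adjusted p-values from 0.00682 to 0.141 over the alternatives.

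Whether the combination departed from the sum of the log2 changes of the drugs was tested as an interaction. None of the 8 genes was called in Be(2)-C or in IMR5-75, by edgeR or by DESeq2, none reached an unadjusted p under 0.05, and 0.257% and 0.0251% of all genes were called. For UHRF1 the departure was -0.07 (95% interval -0.39 to 0.26, adjusted p = 0.951) in Be(2)-C and 0.22 (95% interval -0.09 to 0.54, adjusted p = 0.757) in IMR5-75. For DNMT1 it was 0.09 (95% interval -0.28 to 0.46) and 0.03 (95% interval -0.34 to 0.40). Departures inside these intervals are not excluded with 2 libraries a group.

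The lines were then compared in how far each treatment moved a gene, as the change in IMR5-75 minus that in Be(2)-C. After DAC, TET1 was the called gene of the 8, where 6.19% of all genes were called: its change was -0.66 in IMR5-75 and 0.28 in Be(2)-C, a difference of -0.94 (SE 0.21, adjusted p = 0.00824). That call was lost without Be(2)-C DMSO 1 (-0.86), Be(2)-C DAC 1 (-0.79) or IMR5-75 DAC 1 (-0.71), with adjusted p-values from 0.00058 to 0.0663 over the alternatives. After DAC+EPZ, 2 of the 8 were called, against 11.1% of all genes. DNMT3A changed by -0.17 in IMR5-75 and 0.41 in Be(2)-C, a difference of -0.58 (SE 0.14, adjusted p = 0.0111), and TET1 by -0.63 and 0.09, a difference of -0.72 (SE 0.22, adjusted p = 0.0334).

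The DNMT3A difference lost its call without Be(2)-C DMSO 1 (-0.56), IMR5-75 DMSO 1 (-0.46) or IMR5-75 DAC+EPZ 2 (-0.45), and without the filter on low counts (-0.52, adjusted p = 0.0523), with adjusted p-values from 0.00454 to 0.112 over the alternatives. The TET1 difference after DAC+EPZ lost its call without any of 6 libraries, all those of the 4 groups it compares but IMR5-75 DAC+EPZ 1 and Be(2)-C DAC+EPZ 2, with values from -0.81 to -0.50 and adjusted p-values from 0.0248 to 0.251 over all alternatives. After EPZ, 0 of the 8 were called by edgeR, against 1.19% of all genes. DNMT3A (-0.50, SE 0.14, adjusted p = 0.102) and UHRF1 (0.33, SE 0.15, adjusted p = 0.408) had an unadjusted p under 0.05, and DESeq2 called DNMT3A (-0.51, adjusted p = 0.0393). For UHRF1 the difference after DAC was -0.42 (95% interval -0.73 to -0.10, adjusted p = 0.117) and after DAC+EPZ 0.19 (95% interval -0.12 to 0.51, adjusted p = 0.484).

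Genes that act while DNA is copied moved beside UHRF1 and DNMT1. A list of 32 S-phase genes, which holds replication factors, histone chaperones and E2F and cyclin E genes and none of the 9 genes, was all tested. Of the 32, 19 fell in Be(2)-C after DAC, 30 after EPZ and 31 after DAC+EPZ, with median log2 changes of -0.47, -0.76 and -1.02, and in IMR5-75 32, 3 and 32 fell, with medians of -0.71, -0.27 and -1.03. None rose. Summed over the list, levels ran from 5016 to 5069 CPM with DMSO, 3698 to 3784 after DAC, 2946 to 3107 after EPZ and 2507 to 2602 after DAC+EPZ in Be(2)-C. In IMR5-75 they ran from 5588 to 6015 CPM with DMSO, 3465 to 3594 after DAC, 4710 to 4742 after EPZ and 2765 to 2899 after DAC+EPZ. The order of the groups in each line is that of UHRF1, and the part of S-phase genes in its fall was not tested.

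UHRF1 and DNMT1 stood at different places among these genes. Of the 32, 6 had a lower log2 change than UHRF1 after DAC, 12 after EPZ and 4 after DAC+EPZ in Be(2)-C, and 2, 1 and 6 in IMR5-75. For DNMT1 the counts were 31, 29 and 30 of the 32 in Be(2)-C and 31, 16 and 30 in IMR5-75. Over the 16 libraries, with each line's mean removed, the Pearson correlation with the mean of the S-phase genes was 0.977 for UHRF1 and 0.903 for DNMT1. It was 0.530 for TET1, 0.400 for UHRF2, 0.271 for TET3, 0.147 for DNMT3B, -0.0175 for TET2 and -0.402 for DNMT3A. These describe libraries that share treatments and scaling, and carry no test. Examples are E2F1, a transcription factor of S-phase entry, at 206 ± 7.19 CPM with DMSO and 65.9 ± 7.06 CPM after DAC+EPZ in Be(2)-C (log2 change -1.64, SE 0.14, adjusted p = 3.30e-08), and MCM10, a replication initiation factor, at 215 ± 2.21 and 78.3 ± 1.07 CPM in IMR5-75 (-1.46, SE 0.11, adjusted p = 1.42e-09; SD, n = 2 each).

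**Figure D3:**
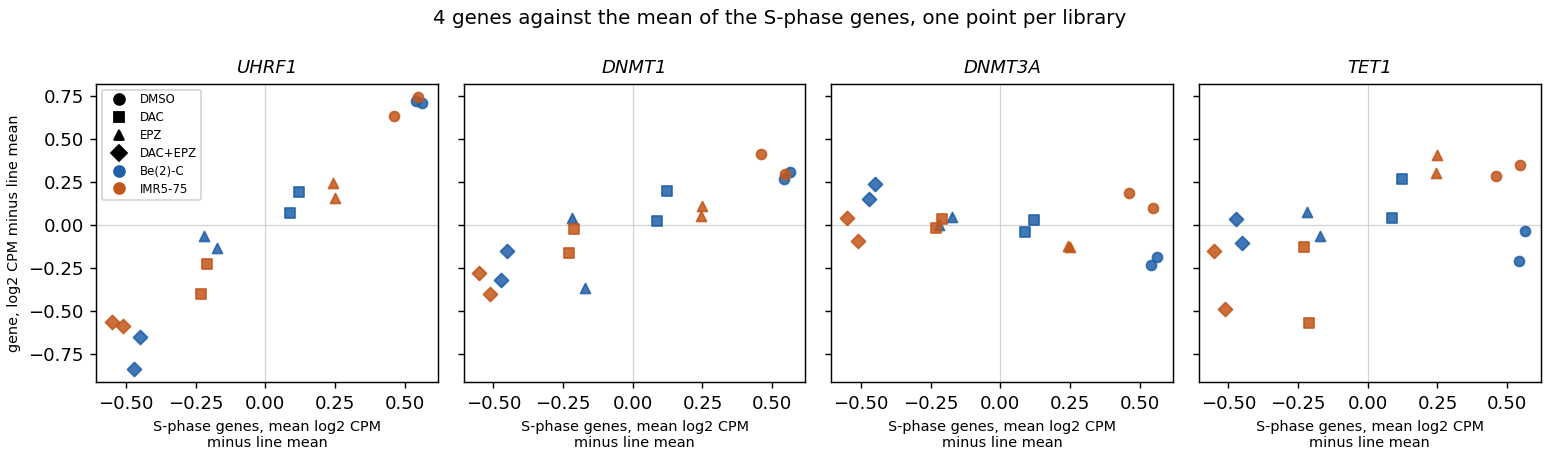
Level of UHRF1, DNMT1, DNMT3A and TET1 in log2 CPM minus the mean of its line (vertical axes) against the mean of the 32 S-phase genes on the same scale (horizontal axes), with 1 point per library, colour for the line and shape for the treatment. UHRF1 and DNMT1 rise with the S-phase mean in both lines (Pearson 0.977 and 0.903 over 16 libraries), and TET1 and DNMT3A do so less or not at all (0.530 and -0.402).

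The partners of maintenance methylation, which clamp, ligate, remodel or modify around DNMT1 and UHRF1, were counted next. Of 13 tested, 4, 6 and 8 fell in Be(2)-C after DAC, EPZ and DAC+EPZ, and 9, 0 and 9 in IMR5-75, with 0 rising. Of all tested genes, 2.97%, 4.85% and 10.4% were lower in Be(2)-C and 13.8%, 0.344% and 20.4% in IMR5-75. This list and the S-phase list have 0 genes in common, but some partners also act in replication. Whether their falls are separate from those of the S-phase genes was not tested. PCNA, the sliding clamp that DNMT1 binds, went from 312 ± 8.92 CPM with DMSO to 121 ± 7.10 CPM after DAC+EPZ in Be(2)-C (log2 change -1.37, SE 0.11, adjusted p = 2.82e-08). CDCA7, which works with the remodeller HELLS, went from 125 ± 8.97 to 52.5 ± 3.24 CPM in IMR5-75 (-1.25, SE 0.11, adjusted p = 1.18e-08; SD, n = 2 each). LIG1, the ligase of replication, fell in Be(2)-C after EPZ (-0.86, SE 0.12, adjusted p = 0.000110).

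Genes around de novo methylation and the readers of methylated DNA were counted in the same way. Among 11 tested recruiters and histone modifiers of de novo methylation, 0, 2 and 2 fell in Be(2)-C after DAC, EPZ and DAC+EPZ and 4, 0 and 6 in IMR5-75, and 1 rose, in Be(2)-C after DAC+EPZ. WHSC1, a histone methyltransferase also named NSD2, fell in both lines after DAC+EPZ (-0.61, SE 0.12, adjusted p = 0.000564 in Be(2)-C and -0.97, SE 0.12, adjusted p = 8.40e-07 in IMR5-75). Of 8 tested methyl-CpG readers, 2, 1 and 2 fell in Be(2)-C and 0, 0 and 1 in IMR5-75, while 1 rose after DAC+EPZ in each line and 1 after DAC in IMR5-75. The readers' counts in IMR5-75 were at or below the share of all genes, of which 13.8% were lower and 19.9% higher after DAC and 20.4% lower and 25.7% higher after DAC+EPZ. MBD2, a reader of the NuRD complex, fell in Be(2)-C after DAC+EPZ (-0.68, SE 0.13, adjusted p = 0.000535), and ZBTB38 rose in IMR5-75 after DAC+EPZ, from 6.59 ± 2.78 to 16.4 ± 1.26 CPM (1.29, SE 0.20, adjusted p = 1.72e-05; SD, n = 2 each).

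Of 16 tested genes that act after or beside the TET enzymes, 1, 3 and 2 fell and 0, 0 and 1 rose in Be(2)-C after DAC, EPZ and DAC+EPZ, and 3, 0 and 5 fell and 4, 0 and 6 rose in IMR5-75. Of all tested genes in IMR5-75, 13.8% were lower and 19.9% higher after DAC, and 20.4% lower and 25.7% higher after DAC+EPZ. NEIL3, a DNA glycosylase, fell in both lines after DAC+EPZ (-1.05, SE 0.14, adjusted p = 1.01e-05 in Be(2)-C and -1.38, SE 0.14, adjusted p = 8.54e-08 in IMR5-75). CXXC5, a CpG-binding protein related to the partner of TET2, rose in IMR5-75 after DAC from 9.61 ± 1.40 to 29.7 ± 3.02 CPM (SD, n = 2 each), a log2 change of 1.63 (SE 0.15, adjusted p = 5.93e-08). Of 12 tested genes of the methyl donor cycle, 2, 3 and 5 fell in Be(2)-C and 6, 0 and 9 in IMR5-75, where 1 rose after DAC and 1 after DAC+EPZ. MTHFD1, a folate enzyme, fell after DAC+EPZ in both lines (-0.86, SE 0.12, adjusted p = 3.03e-05 in Be(2)-C and -0.97, SE 0.12, adjusted p = 1.87e-06 in IMR5-75).

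Of 12 tested genes of decitabine uptake and nucleotide metabolism, 5, 7 and 7 fell in Be(2)-C and 8, 1 and 9 in IMR5-75, and 0 rose. Whether these falls are separate from those of the S-phase genes was not tested. RRM2, a subunit of ribonucleotide reductase, went from 344 ± 10.9 to 133 ± 11.5 CPM (SD, n = 2 each) after DAC+EPZ in Be(2)-C (-1.37, SE 0.12, adjusted p = 8.20e-08). SLC29A1, a nucleoside transporter, was the gene of this list that fell after EPZ in IMR5-75 (-0.59, SE 0.14, adjusted p = 0.0284). The shares of all genes called higher and lower in these comparisons are those given above for the members, and the median change of all genes was at most 0.05.

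**Figure D4:**
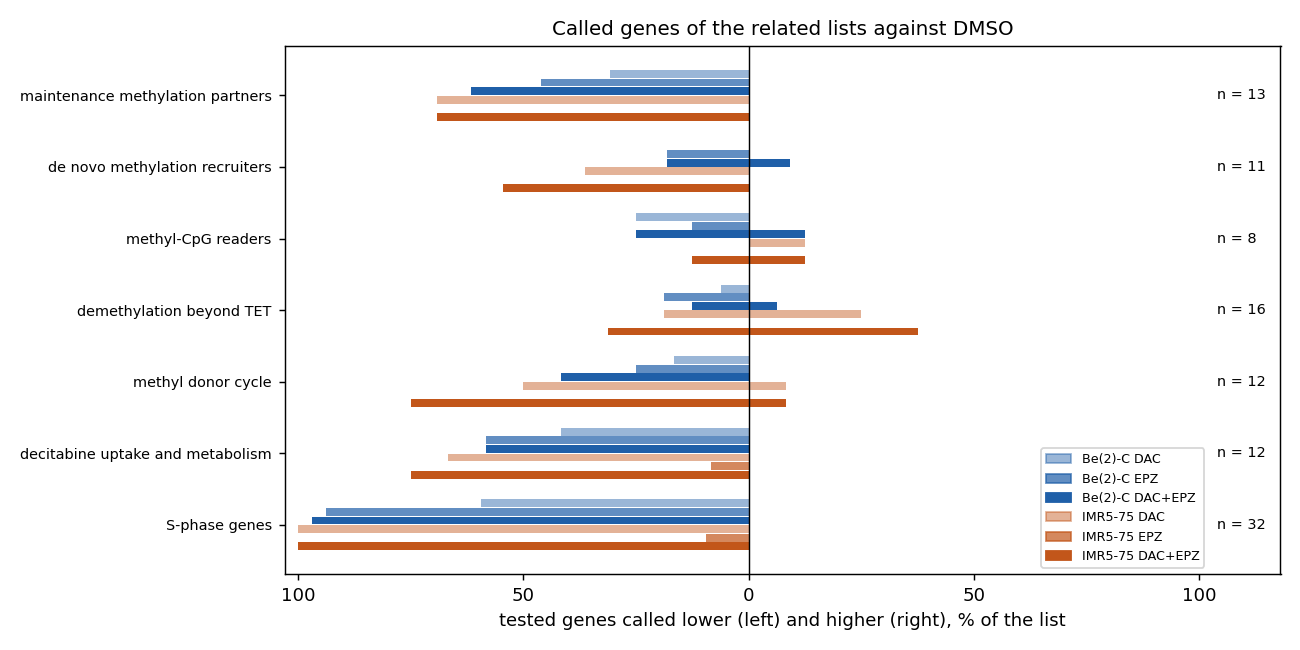
Share of the tested genes of 7 related lists (vertical axis) that were called lower (bars to the left of 0) or higher (bars to the right) against DMSO, in percent of the list (horizontal axis), by line and treatment (colour and shade). S-phase genes reach 32 of 32 lower after DAC and after DAC+EPZ in IMR5-75, and the list beyond TET holds genes called on both sides. All tested genes were also called on both sides, with 13.8% lower and 19.9% higher after DAC in IMR5-75.

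Markers of other cell types were also measured. Summed over 10 Schwann and glial markers the level was 69.05 to 71.05 CPM in Be(2)-C DMSO, 69.6 to 73.8 CPM after DAC, 49.5 to 55.9 CPM after EPZ and 71.7 to 81.6 CPM after DAC+EPZ, of which PMP22 alone gave 37.9 to 66.8 CPM over the 8 libraries. In IMR5-75 it was 22.7 to 24.2 CPM with DMSO, 40.2 to 42.9 CPM after DAC, 28.2 to 31.3 CPM after EPZ and 53.6 to 54.6 CPM after DAC+EPZ, where 5 and 6 of 8 tested markers rose after DAC and after DAC+EPZ. SOX10, the defining factor of the Schwann lineage, stayed at or below 0.908 CPM in every library. Over 9 epithelial markers the sum in Be(2)-C was 5.97 to 8.97 CPM with DMSO, 22.2 to 26.2 CPM after DAC, 8.70 to 9.62 CPM after EPZ and 29.2 to 32.6 CPM after DAC+EPZ, and 3 and 5 of 5 tested markers rose after DAC and after DAC+EPZ. In IMR5-75 it lay between 1.26 and 5.64 CPM. Of the 5 tested markers there, 2 rose and 1 fell after DAC, and 1 rose and 1 fell after DAC+EPZ. CDH1, the epithelial cadherin, reached at most 0.587 CPM in any library of either line. Over 10 haematopoietic markers the sum was 3.42 to 6.67 CPM in Be(2)-C. It was 5.01 to 5.05 CPM in IMR5-75 DMSO, 8.14 to 9.44 CPM after DAC, 4.72 to 5.99 CPM after EPZ and 9.98 to 10.8 CPM after DAC+EPZ. There PTPRC was among those that rose (3.37, SE 0.57, adjusted p = 4.37e-05), from 0.200 ± 0.074 to 2.15 ± 0.70 CPM (SD, n = 2 each). Its DMSO level is near the floor of 3 counts, which is 0.221 and 0.252 CPM in these 2 libraries. Of 13 neuroblastoma identity genes, 3 rose and 3 fell in IMR5-75 after DAC, 2 rose after EPZ, and 3 rose and 4 fell after DAC+EPZ, while in Be(2)-C 3 fell after DAC+EPZ. Of all tested genes in IMR5-75, 19.9% were higher and 13.8% lower after DAC, and 25.7% higher and 20.4% lower after DAC+EPZ. After EPZ in that line 1.63% were higher. In Be(2)-C 3.73% were higher after DAC, and 13.2% were higher and 10.4% lower after DAC+EPZ. CHGA, a secretory granule protein, went from 178 ± 3.56 to 784 ± 61.7 CPM (SD, n = 2 each) after DAC+EPZ in IMR5-75 (2.14, SE 0.13, adjusted p = 4.44e-11), and DBH, an enzyme of noradrenaline synthesis, from 1.51 ± 0.47 to 14.1 ± 0.301 CPM (3.19, SE 0.29, adjusted p = 1.61e-08). The part of these markers in the falls of TET1, DNMT1 and UHRF1 was not tested.

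The genes most like each member in pattern were found by the Pearson correlation of log2 CPM over the 16 libraries after removing each line's mean. For UHRF1 these were SLC5A6 (0.988), BRI3BP (0.984) and RFC2 (0.983), the last of which is on the S-phase list. For DNMT1 they were FOXM1 (0.981), NCAPD2 (0.981) and GTSE1 (0.971), and for TET1 LOC647946 (0.964), SRBD1 (0.919) and PCF11 (0.914). The other members had looser company, with highest values of 0.928 for TET3 (ZNF462), 0.871 for DNMT3A (NEDD4L), 0.867 for TET2 (TEAD1), 0.861 for UHRF2 (CCT6P1) and 0.689 for DNMT3B (C6orf174). Among the members themselves UHRF1 and DNMT1 were the closest pair (0.903), followed by TET1 and TET2 (0.646). These values describe libraries that share treatments.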

How the data were processed

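RNA of Be(2)-C and IMR5-75 was sequenced in 16 libraries (total RNA depleted of ribosomal RNA, strand-specific kit, 50-base single-end reads, per the labels' protocols). Values are whole-number counts of reads per gene symbol, as the authors deposited them without scaling; the submitters' processing notes name TopHat2 2.0.5, HTSeq 0.5.3p9, DESeq2 and build hg19, with the annotation and strand setting not given in the sources used here. Reads of genes overlapping a member, such as S1PR2 with DNMT1 and antisense genes of TET2, TET3 and UHRF2 in GENCODE v29, are therefore uncertain. Here, R 4.3.3 with edgeR 4.0.16 was used: filterByExpr, TMM, a quasi-likelihood fit of 8 groups (8 residual degrees of freedom), Benjamini-Hochberg adjustment, tested on simulated data. Correlations used log2 (CPM + 0.5). The members and gene lists were chosen with earlier results of these data known. Text names the 9 members, at most 2 called genes of each list per comparison with the smallest adjusted p, and the 3 genes most like each member; markers outside this rule were chosen after their values were seen. Alternatives were DESeq2 1.42.0 size factors and Wald test, no filter, a replicate block, each line alone and each library left out.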

Additional observations from a re-analysis of the deposited data

Results flagged for a closer look

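For 2 genes the change after a treatment differed between the lines by a test of the difference itself. TET1 was flagged after DAC, where the change in IMR5-75 minus that in Be(2)-C was -0.94 (adjusted p of edgeR's quasi-likelihood test 0.00824), with both IMR5-75 DAC libraries below DMSO and both Be(2)-C DAC libraries above it. TET1 was flagged again after DAC+EPZ, with a difference of -0.72 (edgeR adjusted p = 0.0334). DNMT3A was flagged after DAC+EPZ, with a difference of -0.58 (edgeR adjusted p = 0.0111), both IMR5-75 libraries below DMSO and both Be(2)-C libraries above it. Each of the 3 calls was lost without certain single libraries: any of 3 for TET1 after DAC (highest edgeR adjusted p = 0.0663), any of 6 for TET1 after DAC+EPZ (0.251) and any of 3 for DNMT3A (0.112). Both TET1 differences share the DMSO libraries of the lines. No explanation was tested.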

How the results depend on the processing

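Of 577 recomputed changes of the 8 tested genes, 512 kept their direction and their side of the threshold, 38 lost a call and 27 changed sign, 0 of the latter with a call before or after. The 577 hold all changes against DMSO and between the untreated lines, and changes in the other comparisons only where these were called at first. DESeq2 size factors moved none of the 577 across the threshold and moved no median of all genes by as much as 0.1. Without the filter on low counts, 1 gene in place of 2 was called in the DAC+EPZ difference between lines (DNMT3A lost its call, adjusted p = 0.0523), and TET2 after EPZ in Be(2)-C was -0.0043. The DESeq2 Wald test called 1 gene in place of 0 in the EPZ difference (DNMT3A, -0.51, adjusted p = 0.0393), a change that is not among the 577. Equal replicate numbers did not pair the libraries throughout a line. Correlations between same-numbered deviations were -0.254 to 0.0131 in Be(2)-C and -0.328 to 0.237 in IMR5-75, where 2 of 6 pairs of groups were over 0.1. A batch shared by libraries with unequal numbers was not tested. With the replicate block, 1 gene in place of 2 was called after EPZ in Be(2)-C (DNMT1, adjusted p = 0.0502), 0 in place of 1 after EPZ in IMR5-75 (UHRF1, 0.0541) and 1 in place of 2 in the DAC+EPZ difference (TET1, 0.0622), and DNMT1 lost its call between the untreated lines (0.0528).

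Leaving out each library in turn leaves 1 library in a group, which is assumed to vary like the others. It gave 1 to 2 called genes after EPZ in Be(2)-C, 0 to 1 after EPZ in IMR5-75, 1 to 3 for DAC+EPZ against EPZ in IMR5-75, 0 to 1 for the DAC difference and 0 to 2 for the DAC+EPZ difference. The uncalled changes that turned sign spanned the following. In Be(2)-C, DNMT3B ran from -0.0322 to 0.114 after DAC, -0.0036 to 0.11 after EPZ and -0.0436 to 0.157 after DAC+EPZ. TET2 ran there from -0.0334 to 0.143 after DAC and -0.0699 to 0.0972 after EPZ, and TET3 from -0.0602 to 0.324, -0.21 to 0.39 and -0.128 to 0.0832 after DAC, EPZ and DAC+EPZ. UHRF2 ran from -0.20 to 0.15 after EPZ and -0.138 to 0.0663 after DAC+EPZ, and TET1 from -0.0141 to 0.174 after DAC+EPZ. In IMR5-75, DNMT3B ran from -0.14 to 0.19 after DAC, -0.20 to 0.14 after EPZ and -0.28 to 0.0022 after DAC+EPZ, TET2 from -0.186 to 0.0758 after DAC and -0.127 to 0.0972 after DAC+EPZ, and TET1 from -0.0129 to 0.104 after EPZ. UHRF2 between the untreated lines ran from -0.109 to 0.0824.

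Counts of called genes over the whole table moved by more than 1.5 times in these cases. Without the filter they went from 316 to 740 after EPZ in IMR5-75, from 309 to 541 for DAC+EPZ against DAC in IMR5-75, from 41 to 109 and 4 to 84 for the interactions, and from 190 to 425 for the EPZ difference, where the Wald test gave 292 (and 14 for the IMR5-75 interaction). The replicate block gave 703 of 1069 after DAC in Be(2)-C, 188 after EPZ in IMR5-75, 124 for DAC+EPZ against DAC in IMR5-75 and 98 for the EPZ difference. IMR5-75 fitted alone gave 164 for DAC+EPZ against DAC and 1 for the interaction. Leaving out a library lowered the count after EPZ in IMR5-75 to 32 at the least, after DAC in Be(2)-C to 297, after EPZ to 578 of 1630 and after DAC+EPZ to 2097 of 3777. It gave at the least 314 of 869 and 278 of 672 for DAC+EPZ against DAC and against EPZ in Be(2)-C, and 49 and 3737 (of 6005) in IMR5-75. For the interactions it gave 16 to 51 and 1 to 10, and for the differences between lines 48 at the least for EPZ and 1066 of 1766 for DAC+EPZ. With 2 libraries a group, small changes were not detectable.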
